A study of Homo sapiens with 8 samples.

Results

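The endoplasmic reticulum (ER) unfolded protein response and ER-associated degradation (ERAD) were followed in thyroid cells in which miR-375 was raised or inhibited. The members were 45 genes of the ER folding and disposal machinery, taken by name from a list drawn up with earlier results of these data known. They were 11 chaperones and their partners, 6 enzymes of oxidative folding, 4 sensors and transcription factors, 15 components of ERAD and 9 subunits of the translocation channel. On the array they had 62 of 50599 probes and were 45 of 36337 gene names. One probe measured 31 of the genes, 2 probes measured 11 and 3 probes measured 3, and the brightest probe over the 8 arrays stood for a gene. The array design used the older names ERO1L for ERO1A, ERO1LB for ERO1B and UFD1L for UFD1, which are kept here.

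Secretory and membrane proteins enter the ER through the Sec61 channel and fold there with the help of chaperones and of enzymes that form disulfide bonds. When unfolded protein accumulates, the sensors IRE1 (encoded by ERN1), ATF6 and PERK induce more chaperones, through XBP1 among other factors, and slow translation. Chains that fail to fold are recognised by lectins, pulled back through a membrane complex of HRD1 (encoded by SYVN1), SEL1L, Derlins and HERPUD1, and handed to the ATPase VCP for destruction by the proteasome. Cells that secrete hormone, such as the calcitonin-producing C cells from which medullary thyroid carcinoma arises, rely heavily on this machinery.

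RNA was measured on 8 single-colour Agilent arrays, 2 per group. Nthy-ori 3-1 is a line made from normal follicular thyroid cells by immortalization, and it received pre-miR-375, a precursor molecule that supplies the miRNA, or served as control (CTL). TT, a line from a medullary thyroid carcinoma, was transfected with antagomiR-375, an antisense inhibitor, or served as control. The labels give 5 nM pre-miR-375, 20 nM antagomiR-375 and harvest after 48 h, whereas the methods name higher concentrations, and the labels call the control only CTL. The methods give pre-miR-CTL as the control of the Nthy-ori 3-1 arrays, and for the TT arrays the control reagent is not clear from them. Each line is a single established culture. The methods call the replicates of a condition biological without saying what was repeated, and p-values measure the spread between these arrays.

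Some facts touch every result below. The array of a treated replicate lay on the same slide as the control array of equal number, and each slide held a single line, so that line, slide and scan session cannot be told apart beyond the spread between slides. The labels number the TT replicates differently in the title and in another field, and the numbers of the title were used. The RNA integrity number was 8 on both TT control arrays and 9 on the others, so RNA quality and treatment cannot be told apart in TT cells. Spots well above background numbered 32071 to 37340 of 58717 per array, and no spot was saturated. All 8 C cell markers on the array were well above background in TT control cells and 2 of 8 were in Nthy-ori 3-1 control cells. Of the follicular markers, TSHR was not well above background in either control group, and NKX2-1 was not in Nthy-ori 3-1 cells but was in TT cells, with levels of 12.35 and 12.21. PAX8 and FOXE1 were well above background in Nthy-ori 3-1 control cells, and PAX8 also was in TT cells. TG, which encodes thyroglobulin, was lower in Nthy-ori 3-1 control cells, at 4.72 and 5.02, than in those of TT, at 9.13 on both arrays, which goes against the label of a follicular line. SEC23A, which the study followed as a target of miR-375, was lower by 1.51 and 1.27 in the pairs of Nthy-ori 3-1 arrays and higher by 0.70 and 0.61 in those of TT. In bulk RNA, fewer cells of a type and less RNA per cell cannot be told apart.

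The miRNA and the promoter elements that ER stress factors are known to bind are shown before the values, because they are the sequences through which the manipulation and the pathway are read. The miRNA is hsa-miR-375-3p, chr2:219001648-219001669 on the minus strand of GRCh38.p14 in RefSeq, with the seed, bases 2 to 8, in capitals.

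hsa-miR-375-3p: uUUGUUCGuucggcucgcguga

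RefSeq promoters, from 250 bases before to 50 bases after a start site, were at hand for 41 of the 45 genes, as 51 promoters. They were searched on both strands for exact matches to 3 elements. The ER stress response element (ERSE), CCAAT and CCACG with 9 bases of any kind between them, was found in 27 of 35116 promoters in all, or 0.0769%, which belonged to 25 genes, and 8 of those genes were members. ERSE-II, ATTGG and CCACG with 1 base of any kind between them, was found in 19 promoters, or 0.0541%, and 3 of its 19 genes were members. The UPR element (UPRE), TGACGTGG, was found in 256 promoters, or 0.729%, and in those of 6 members: SEC62, SSR3, SSR4, UBE2J1, VCP and HYOU1. In HYOU1 it overlapped an ERSE-II. A match is a description of letters and not of binding, and 7 of the 8 members with an ERSE were chaperones or folding enzymes.

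The stretches below hold the ERSE of the chaperones HSPA5, CALR and CRELD2, of the folding enzymes PDIA6 and ERO1LB and of the transcription factor XBP1, each read along the gene's strand in GRCh38.p14. The fixed letters of the element are in capitals.

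HSPA5: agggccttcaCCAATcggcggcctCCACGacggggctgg
XBP1: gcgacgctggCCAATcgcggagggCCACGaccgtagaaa
PDIA6: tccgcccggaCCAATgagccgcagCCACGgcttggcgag
CALR: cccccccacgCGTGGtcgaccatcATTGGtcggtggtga
CRELD2: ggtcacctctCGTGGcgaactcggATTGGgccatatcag
ERO1LB: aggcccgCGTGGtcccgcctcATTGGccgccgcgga

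They lie at chr9:125241381-125241419 (minus strand), chr22:28800593-28800631 (minus), chr2:10812843-10812881 (minus), chr19:12938374-12938412 (plus), chr22:49918544-49918582 (plus) and chr1:236282173-236282208 (minus), in the order printed. In HSPA5, XBP1 and PDIA6 the element runs with the gene, from -66, -52 and -86 bases relative to the start site, and in CALR, CRELD2 and ERO1LB it runs on the opposite strand, from -225, -80 and -243. The ERSE-II is the shorter form, in which the fixed letters stand 1 base apart, in capitals. It is shown for HERPUD1, whose response differed between the lines, beside SDF2L1 and HYOU1, whose difference did not pass the test.

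HERPUD1: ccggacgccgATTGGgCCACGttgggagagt
SDF2L1: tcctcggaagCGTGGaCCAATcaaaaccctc
HYOU1: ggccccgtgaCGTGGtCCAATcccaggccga

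These lie at chr16:56932015-56932045 (plus), chr22:21642104-21642134 (plus) and chr11:119057370-119057400 (minus). The ERSE-II of HERPUD1 starts at -117, that of SDF2L1 at -188 and the one shown of HYOU1 at -185.

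**Figure D1:**
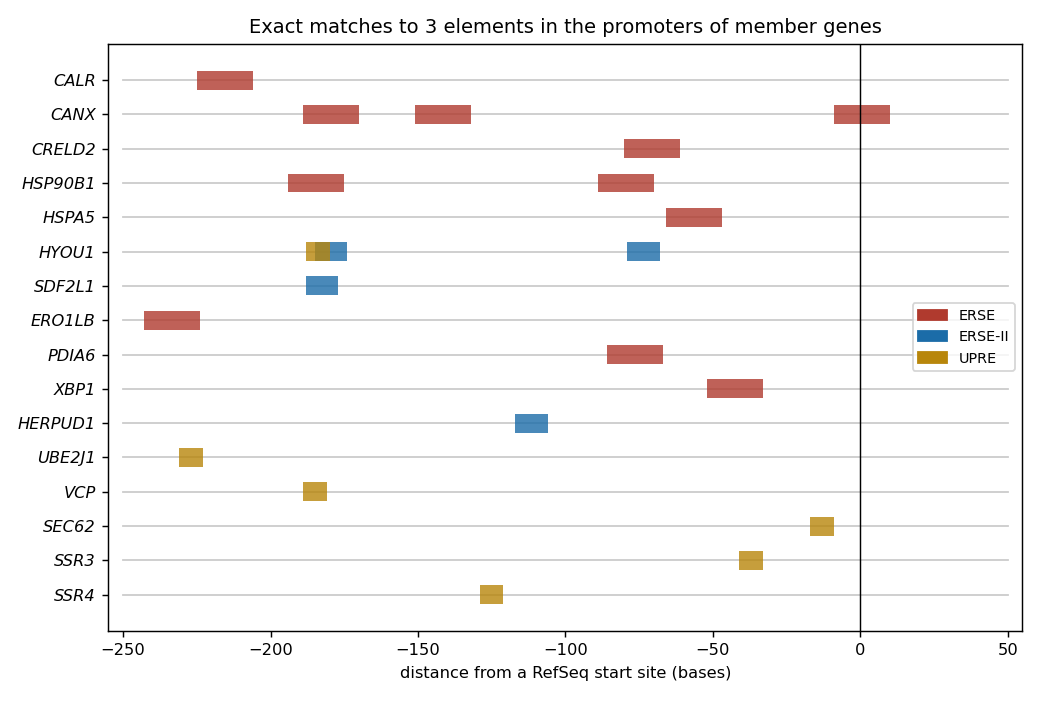
Exact matches to the 3 elements by distance in bases from a RefSeq start site, for the 16 members with any match. Bars span each match and a gene's starts are overlaid, so that the 3 bars of CANX come from 3 starts. Matches lay mostly upstream of the start, from -243 in ERO1LB to those near the start in CANX and SEC62.

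The question put to the arrays was whether the ER machinery responded differently to raising miR-375 in follicular cells and to inhibiting it in medullary carcinoma cells. The responses differed past the test for 4 of the 42 genes tested in both lines. DERL1, HERPUD1, SEC61G and SSR1 had a change with pre-miR-375 that lay below the change with antagomiR-375, and 0 genes had the reverse. DERL1 and HERPUD1 belong to the retrotranslocation complex of ERAD, whereas SEC61G and SSR1 belong to the channel by which chains enter the ER. Of the 11 chaperones 0 were called. Over all probes, 5.9% (1497 of 25392) passed the same test at a Benjamini-Hochberg adjusted p of at most 0.05 in limma, 2.43% higher and 3.47% lower. The 4 members are read here gene by gene, not as a result about the list.

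DERL1 encodes Derlin-1, a membrane protein that helps to draw misfolded chains out of the ER. On the arrays of Nthy-ori 3-1 its log2 intensity read 8.06 and 9.58 without and 6.72 and 8.41 with pre-miR-375. The groups overlapped, but within each slide the treated array was lower, by 1.34 and 1.17. In TT cells DERL1 was at 8.24 and 8.55 in control cells and at 9.19 and 9.35 with antagomiR-375, without overlap. The change was -1.25 ± 0.12 (SE, n = 2 pairs) in Nthy-ori 3-1 and 0.87 ± 0.12 in TT cells, or 2.38-fold lower and 1.83-fold higher. The difference between the lines was -2.13 ± 0.15 (adjusted p = 0.0322, limma).

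HERPUD1, a ubiquitin-like scaffold of the HRD1 complex that is itself a strong target of ER stress, was read by a probe at chr16:56977700-56977759 (hg19). It stood at 12.59 and 12.57 in Nthy-ori 3-1 control cells and at 11.53 and 11.73 with pre-miR-375, so that the groups were apart by more than their spread. In TT cells it was at 12.78 and 13.14 in control cells and at 13.16 and 13.35 with antagomiR-375. Those TT groups were apart by only a small step, while each treated array exceeded its slide's control, by 0.37 and 0.21. The change was -0.95 ± 0.13 with pre-miR-375 and 0.29 ± 0.12 with antagomiR-375, and the difference between them was -1.25 ± 0.16 (adjusted p = 0.0388, limma).

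SEC61G, the gamma subunit of the Sec61 channel, was at 13.83 and 13.55 in Nthy-ori 3-1 control cells and at 12.79 and 12.45 with pre-miR-375. In TT cells it was at 13.58 and 13.43 in control cells and at 13.68 and 13.64 with antagomiR-375. The step was thus large in Nthy-ori 3-1 cells, -1.07 ± 0.12, and small in TT cells, 0.15 ± 0.11, and the difference was -1.22 ± 0.14 (adjusted p = 0.0360, limma). Of the other Sec61 subunits, SEC61A1 was at 0.31 ± 0.13 and SEC61B at 0.24 ± 0.13 in Nthy-ori 3-1 cells. In the fit of that line alone no probe passed, that of SEC61G included. Whether the changes of SEC61A1 and SEC61B differ from that of SEC61G was not tested.

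SSR1, the alpha subunit of the translocon-associated protein complex, was read by 3 probes that did not give the same answer. The brightest, at chr6:7287804-7287863 (hg19), was at 13.42 and 13.74 in Nthy-ori 3-1 control cells, at 12.41 and 12.70 with pre-miR-375, at 14.18 and 14.30 in TT control cells and at 14.12 and 14.39 with antagomiR-375. It changed by -1.02 ± 0.11 in Nthy-ori 3-1 and by 0.02 ± 0.12 in TT cells, and the difference was -1.04 ± 0.14 (adjusted p = 0.0412, limma). The other probes, at chr6:7281589-7281648 and chr6:7289798-7289857, were lower in both pairs of Nthy-ori 3-1 arrays by 0.15 to 0.30, and their difference between lines had an adjusted p of 0.325 and 0.817 (limma). All 3 probes are annotated to the same RefSeq transcript, and the result for SSR1 rests on 1 of them. The other subunits of the complex, SSR2, SSR3 and SSR4, had differences of -0.18, -0.27 and 0.24 that did not pass.

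These 4 calls depended on the fit. Leaving out any pair of arrays left 0 members called, as did the fit without a replicate block and that without a filter on dim probes, while 7 members were called with the normexp background correction (14.9% of probes), with the deposited log2 values (13.1%) and with the median signal (13%). DERL1, HERPUD1, SEC61G and SSR1 kept the sign of their difference under each of 13 alternatives. SSR1 was also not called with 75th percentile scaling (adjusted p = 0.0524, limma) or with the mean of the gene's probes, where its difference was -0.47 (adjusted p = 0.111).

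**Figure D2:**
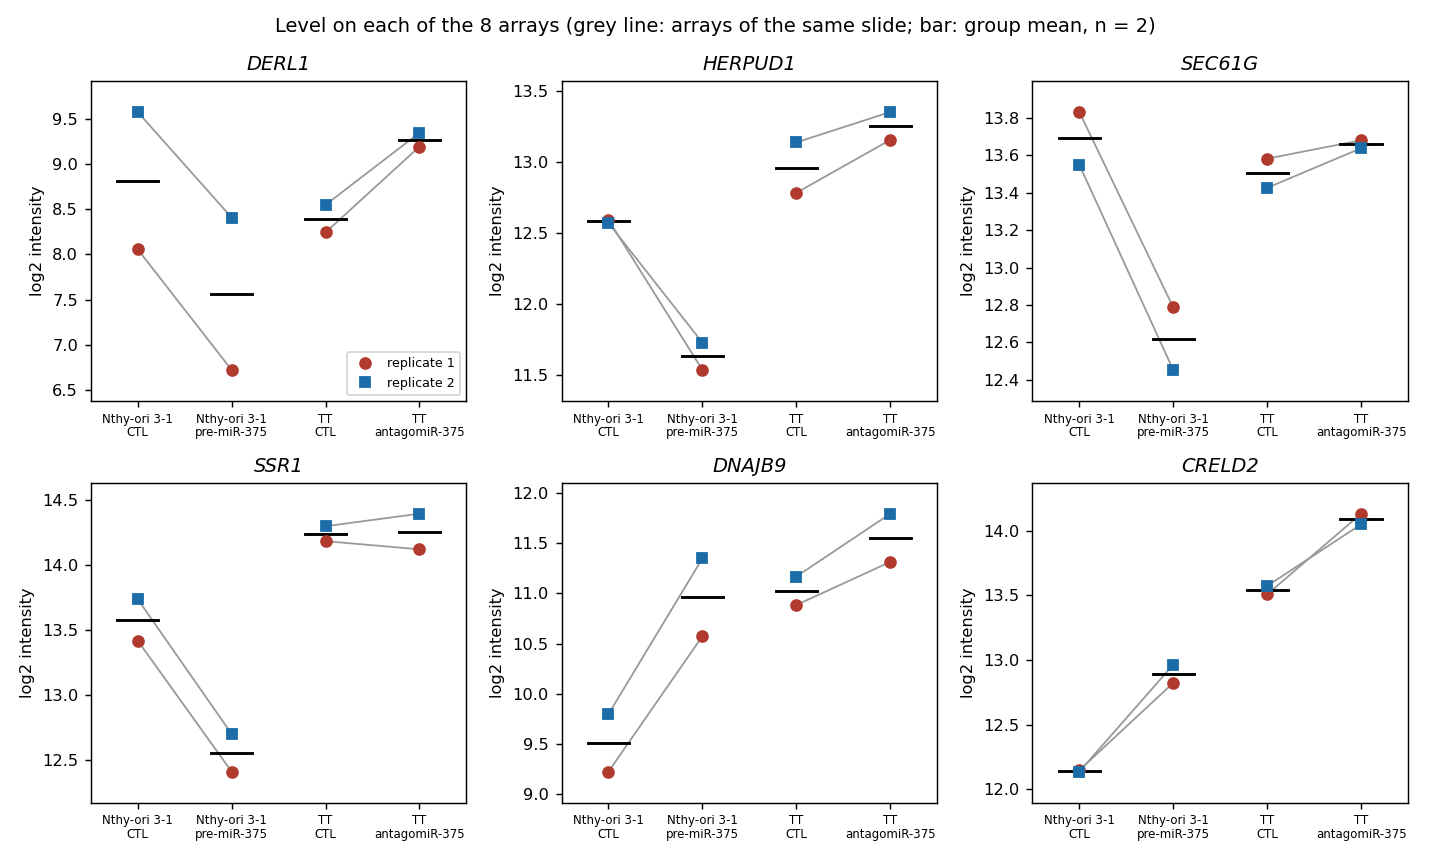
Log2 intensity on each of the 8 arrays for the 4 genes whose response differed between the lines and for DNAJB9 and CRELD2. Circles and squares are replicates 1 and 2, grey lines join arrays of a slide and bars are group means (n = 2). DERL1, HERPUD1, SEC61G and SSR1 are lower with pre-miR-375, by 0.84 to 1.34, whereas DNAJB9 and CRELD2 are higher with each treatment.

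In Nthy-ori 3-1 cells alone, 0 members passed the test with pre-miR-375. Of 43 members tested, 29 were higher in both pairs, 4 were lower in both pairs and in 10 the pairs disagreed. Over all probes tested the shares were 37.3% higher and 33.8% lower in both pairs. The members' median log2 fold change was 0.24, or 0.15 with 75th percentile scaling, against 0.02 over all probes tested. With 1 residual degree of freedom 0 members and 0% of 27724 probes passed an adjusted p of 0.05 in limma, where the smallest adjusted p was 0.0785. At an unadjusted p under 0.05 there were 7416 probes, or 26.7%, and among the members 9 higher and 4 lower. Fitting both lines together called 8.36% of the same probes and 6 members, correcting the background by normexp called 15.2% and 10 members, the deposited values 12% and 9 members, and the median signal 11% and 8 members. A log2 change past 0.6 was reached by 4 members on the higher side, DNAJB9, CRELD2, OS9 at 0.61 and SEC62 at 0.67, and by DERL1, HERPUD1, SEC61G and SSR1 on the lower side. Over all probes 16.7% were past it, 7.75% higher and 8.92% lower. With pre-miR-375 the summed level of the 8 C cell markers also stood higher, at 9.10 to 9.19 against 7.37 to 7.39 in control cells, though CALCA, CHGA and 4 others of the 8 were not well above background in control cells. CALCA read 3.91 and 3.57 without and 8.12 and 4.51 with pre-miR-375, and SCG2 read 2.10 and 4.62 and then 6.72 and 8.42. The 2 C cell markers that were well above background, RET and GFRA4, were lower in both pairs. The summed level of the 6 stromal and blood markers was 14.72 to 14.84 against 13.45 to 14.24. Most of it came from COL1A1, at 14.21 and 13.39 without and 14.83 and 14.70 with pre-miR-375. PTPRC was higher in both pairs, at 6.19 and 6.17 and then 6.34 and 6.28. PECAM1 and COL3A1 read higher in both pairs but were not well above background in control cells. CD68 and VWF were lower in both pairs. The follicular markers PAX8 and FOXE1 were also lower in both pairs. Their part in these results was not tested.

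Among the chaperones, DNAJB9 had the highest change. DNAJB9, also called ERdj4, is a co-chaperone that recruits the chaperone BiP (encoded by HSPA5) to IRE1 and to misfolded chains. It was at 9.22 and 9.80 in control cells and at 10.57 and 11.35 with pre-miR-375, without overlap, which made it 2.73-fold higher (log2 1.45 ± 0.13, adjusted p = 0.0785 in limma and 0.0229 with both lines fitted together). CRELD2, an ER-stress-inducible disulfide isomerase-like protein, was at 12.15 and 12.14 in control cells and at 12.82 and 12.96 with pre-miR-375. Its groups were also apart, by 0.75 ± 0.12 (adjusted p = 0.0944, and 0.0396 with both lines fitted together). HSPA5, the central chaperone of the response, was at 11.16 and 10.80 in control cells and at 11.17 and 10.83 with pre-miR-375, so that its groups overlapped. Its change was 0.01 ± 0.11. The partners HSP90B1, MANF, DNAJB11 and DNAJC3 were between 0.15 and 0.36. In the lectin chaperones, CALR was at 0.29 ± 0.13 and CANX at -0.12 ± 0.14. The pairs of CANX disagreed, from 11.97 to 11.98 and from 11.52 to 11.27.

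Of the folding enzymes, PDIA6, a protein disulfide isomerase, was at 10.88 and 11.82 in control cells and at 11.33 and 12.41 with pre-miR-375, so the groups overlapped while both pairs were higher (0.52 ± 0.12, adjusted p = 0.130, limma). PDIA3, the isomerase that works with the lectin chaperones, was higher by 0.39 ± 0.11 and ERO1L, the oxidase that recharges the isomerases, by 0.26 ± 0.12. PDIA4 was lower in one pair and higher in the other. ERO1LB was not well above background on any of the 4 Nthy-ori 3-1 arrays and was not tested in this line.

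The sensors had small values. XBP1, measured as total transcript without distinction of its spliced form, was at 12.40 and 12.68 in control cells and at 12.40 and 12.74 with pre-miR-375. ATF6 was at 0.02 ± 0.13 and ATF6B at 0.33 ± 0.12. ERN1 was not well above background on any of the Nthy-ori 3-1 arrays, and no fold could be given.

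In ERAD, 10 of 15 members were higher in both pairs and 2, DERL1 and HERPUD1, were lower, beside 37.3% and 33.8% of all probes. OS9, a lectin that delivers glycoproteins to SEL1L, was at 12.21 and 12.18 in control cells and at 12.63 and 12.99 with pre-miR-375 (0.61 ± 0.16, adjusted p = 0.145, limma). SYVN1, the ubiquitin ligase of the complex, was higher by 0.50 ± 0.13 and the mannosidase EDEM3 by 0.48 ± 0.12. The paralogs of DERL1 went with the majority, DERL2 at 0.28 ± 0.11 and DERL3 at 0.25 ± 0.14. A second, dimmer probe of DERL3 was higher by 2.88 and 0.44 in the pairs and was not called. DERL1 and HERPUD1 were thus the only ERAD members lower in both pairs. At the channel, SEC62 was higher by 0.92 and 0.41 in the pairs but was well above background on 2 of 4 arrays, and no alternative called it. Its change of 0.67 was 0.16 with normexp and 0.22 with the median signal.

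In the reverse experiment, antagomiR-375 in TT cells, changes were smaller. Of 44 members tested, 28 were higher and 8 lower in both pairs, against 30% and 33.8% of all probes, and the members' median was 0.10, or 0.061 with 75th percentile scaling, against -0.01 over all probes. In limma 0 members and 0% of 30305 probes passed, with a smallest adjusted p of 0.341. At an unadjusted p under 0.05 there were 4146 probes, or 13.7%, and among the members 10 higher and 0 lower. None of the alternatives called a member, though normexp called 109 probes. A log2 change past 0.6 was reached by 3 members, DERL1, PDIA4 and ERN1, all higher, where 7.91% of probes were past it, 4.57% higher and 3.33% lower. Among the C cell markers CALCA, which makes up most of their sum, read the same 18.61 on 3 of the 4 TT arrays after the arrays were brought to common quantiles, so the sum says little. CEACAM5 was at 7.09 and 7.29 in control cells and at 8.23 and 7.96 with antagomiR-375, and GFRA4 was lower in both pairs. The RNA integrity number was lower in the control cells. Their part in these results was not tested.

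PDIA4, a large protein disulfide isomerase, was at 11.70 and 11.85 in TT control cells and at 12.38 and 12.46 with antagomiR-375, without overlap (0.64 ± 0.11, adjusted p = 0.341, limma). CRELD2 was at 13.51 and 13.57 in control cells and at 14.13 and 14.05 with antagomiR-375 (0.55 ± 0.12), and DNAJB9 was at 10.88 and 11.17 and at 11.31 and 11.79 (0.53 ± 0.12). These last genes were higher with the miRNA added in one line and with it inhibited in the other, the same sign under opposite treatments. XBP1 was at 13.86 and 14.02 in control cells and at 14.28 and 14.41 with antagomiR-375, higher by 0.41 ± 0.11. ERN1, which encodes the sensor IRE1 that splices XBP1, was dim, at 3.92 and 3.89 in control cells and at 4.35 and 4.82 with antagomiR-375 (0.68 ± 0.18). Its change was 0.10 with normexp, 0.18 with the median signal and 0.43 without TT replicate 2.

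The largest steps down in TT cells were small. UBE2J1, an ER-anchored ubiquitin-conjugating enzyme, was at 11.50 and 11.19 in control cells and at 10.99 and 10.99 with antagomiR-375 (-0.36 ± 0.14). ATF6B was at 9.64 and 8.51 in control cells and at 8.96 and 8.51 with antagomiR-375, so that 1 pair carried the whole value of -0.34 ± 0.23. OS9, ATF6 and ERO1L were lower by between 0.18 and 0.19, and HSPA5 was at -0.14 ± 0.11. The smallest adjusted p among these was that of UBE2J1, 0.400 (limma).

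**Figure D3:**
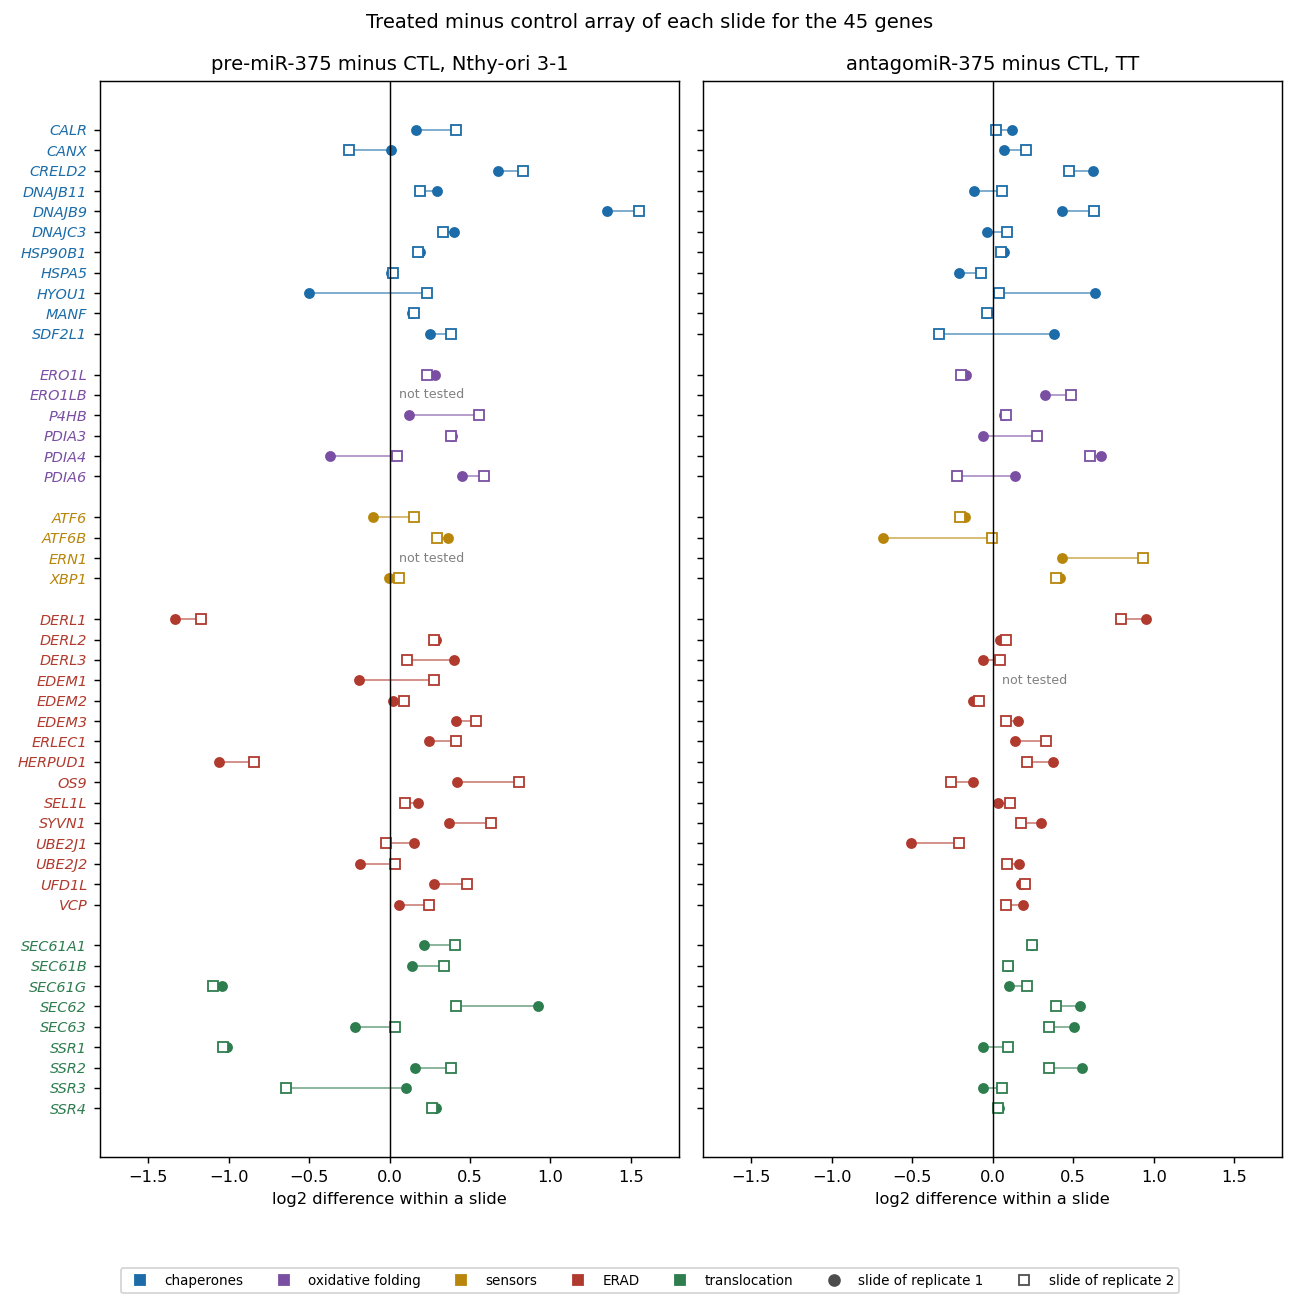
Log2 difference between the treated and the control array of each slide for the 45 genes, ordered by role, in Nthy-ori 3-1 (left) and TT cells (right); filled circles and open squares are the slides of replicates 1 and 2. Most symbols lie to the right of 0 on the left, with DERL1, HERPUD1, SEC61G and SSR1 at -0.84 or below in both pairs, and symbols lie nearer to 0 on the right.

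DNAJB9 had a difference between the lines of 0.92 ± 0.16 (adjusted p = 0.0591, limma), OS9 of 0.80 ± 0.19 (adjusted p = 0.0924) and PDIA4 of -0.80 ± 0.20 (adjusted p = 0.0946). These 3 missed the threshold and were the members added under the other signals. CRELD2, at 0.20 ± 0.15, and HSPA5, at 0.15 ± 0.14, had differences with small standard errors, but a p that misses the threshold does not show that the lines responded alike.

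**Figure D4:**
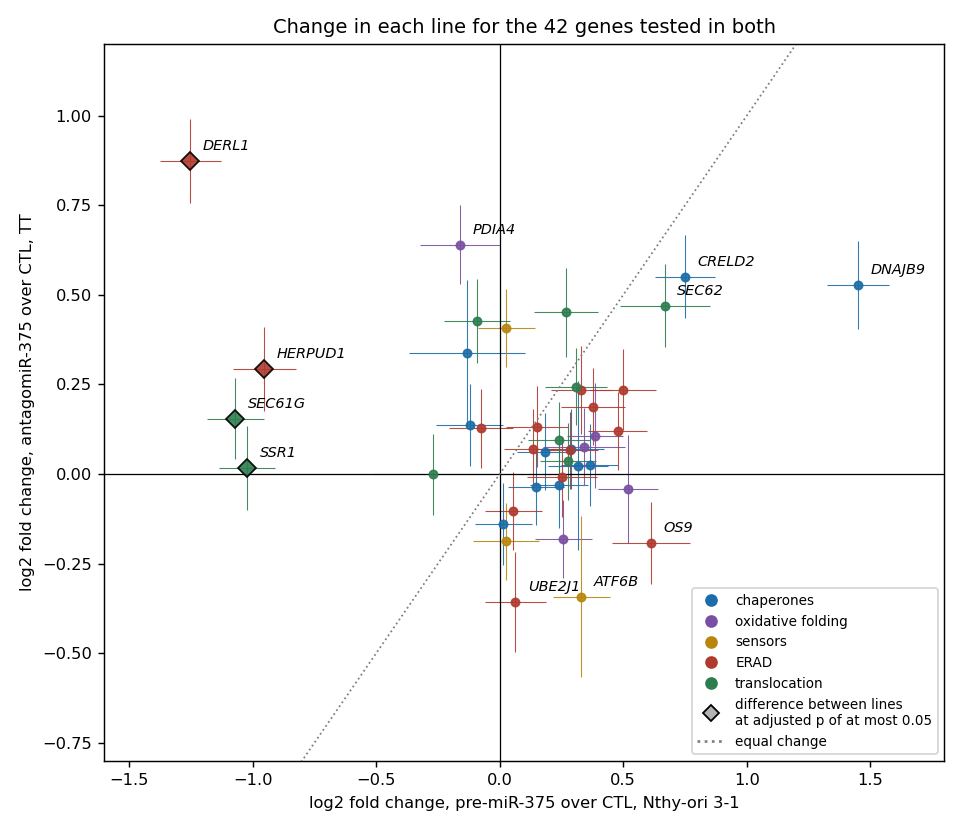
Log2 fold change with pre-miR-375 in Nthy-ori 3-1 (horizontal) against that with antagomiR-375 in TT cells (vertical) for the 42 genes tested in both, with standard errors (n = 2 pairs per line) and a dotted line of equal change. The 4 diamonds, which passed the test of the difference, lie at the left, DERL1 highest at -1.25 and 0.87, while DNAJB9 lies at the right at 1.45 and 0.53.

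Genes with and without an ERSE or ERSE-II had overlapping ranges of change. The 10 tested genes with an ERSE or ERSE-II had a median change of 0.11 with pre-miR-375, from -0.95 in HERPUD1 to 0.75 in CRELD2, and the 29 tested genes with a promoter but neither element had a median of 0.24. With antagomiR-375 the medians were 0.14 over 11 genes and 0.08 over 29. HERPUD1, SDF2L1 and HYOU1, which share the ERSE-II printed above, were at -0.95, 0.32 and -0.13 with pre-miR-375.

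The control cells of the 2 lines were then compared, which asks how the carcinoma line differs from the follicular line before any treatment. Of 45 members, 18 were higher and 5 lower at an adjusted p of at most 0.05 in limma, and the median was 0.65 against -0.03 over all probes tested. Over all probes 47.9% (14882 of 31074) were called, 23.7% higher and 24.2% lower. The share of members called, 23 of 45, was near the background, and 18 of the 23 calls were on the higher side. The calls include ERO1LB and EDEM1, which passed the filter on dim probes only through the line where they were brighter, so that their p-values rest in part on readings below background. A line is represented by 1 culture and its own slides, and the RNA integrity number was 8 on the TT control arrays and 9 on those of Nthy-ori 3-1, so that differences of origin, culture, slide and RNA quality cannot be told apart.

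ERO1LB, an ER oxidase known for its role in cells that make secretory hormone, stood out. It was at 7.95 and 7.72 in TT control cells and was not well above background in Nthy-ori 3-1 cells, with readings of 2.02 and 1.98. Its call rests in part on those readings, so no p-value is given. Against the lowest signal of any probe well above background on the Nthy-ori 3-1 arrays, the level was 11.2-fold higher in TT. That floor is not the probe's own, so the value is no strict bound. The fitted log2 difference of ERO1LB was 1.99 with normexp and 2.24 with the median signal. Its paralog ERO1L went the other way, at 9.79 and 9.90 in Nthy-ori 3-1 and at 9.14 and 9.16 in TT cells (-0.70 ± 0.15, adjusted p = 0.0106). Among the isomerases PDIA3 was higher in TT cells by 1.56 ± 0.21 (adjusted p = 0.00150).

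Of the 11 chaperones, 6 were higher in TT cells and 0 lower, beside 23.7% and 24.2% of all probes: DNAJB9 by 1.51, CRELD2 by 1.40, MANF by 1.04, DNAJC3 by 0.98, HSPA5 by 0.72 and CALR by 0.69. The call of HSPA5 was lost with 75th percentile scaling, with the control arrays alone and without TT replicate 1 or ORI replicate 2, and that of CALR without TT replicate 1, TT replicate 2 or ORI replicate 2. SDF2L1, a partner of BiP, was at 15.33 and 14.96 in Nthy-ori 3-1 and at 13.87 and 14.52 in TT cells, and its difference of -0.95 ± 0.32 did not pass (adjusted p = 0.0536, limma). It was called lower in limma with normexp (adjusted p = 0.0251), with the median signal (0.0261) and with no replicate block (0.0282). Without TT replicate 2 its difference was larger, at -1.30. That fit leaves a single TT control array, so only the size is given for SDF2L1, not whether it was called. HYOU1 was called higher with normexp (adjusted p = 0.0365, limma), with the median signal (0.0344) and with the control arrays alone (0.0465). HSP90B1 was called higher with normexp (adjusted p = 0.0485, limma) and with 75th percentile scaling (0.0315). Among the sensors, ATF6 was at 9.71 and 9.31 in Nthy-ori 3-1 and at 11.51 and 11.51 in TT cells, 4.00-fold higher (adjusted p = 0.000365). XBP1 was higher by 1.40 ± 0.18 (adjusted p = 0.00138). ERN1 was well above background in TT control cells but not in Nthy-ori 3-1 cells.

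Of the 15 ERAD members, 5 were higher and 4 lower in TT cells, near the same shares, and their median was -0.09. The lower ones include EDEM1, whose call rests in part on readings below background. The higher ones were the mannosidase EDEM3 by 1.87 ± 0.26, the lectin ERLEC1 by 1.58 ± 0.17, OS9 by 1.04 ± 0.21 and SYVN1 by 0.56 ± 0.18, and UBE2J1, at 9.49 and 9.50 in Nthy-ori 3-1 and at 11.50 and 11.19 in TT cells. Among the lower ones VCP, the ATPase that extracts chains into the cytosol, was at 15.00 and 15.48 in Nthy-ori 3-1 and at 13.71 and 13.86 in TT cells (-1.45 ± 0.25, adjusted p = 0.00397). Its cofactor UFD1L was lower by 0.74 ± 0.17 (adjusted p = 0.0124, and 0.0505 without TT replicate 2) and the conjugating enzyme UBE2J2 by 1.32 ± 0.20. EDEM1, the third mannosidase-like protein beside EDEM2 and EDEM3, was at 5.76 and 6.13 in Nthy-ori 3-1 cells. It was not well above background in TT control cells, with readings of 3.98 and 3.66. Taken from those readings it was 4.37-fold lower, which is the fitted estimate and no bound. Its call rests in part on those readings, so no p-value is given. The fitted log2 difference of EDEM1 was -0.68 with normexp and -0.80 with the median signal. The call of SYVN1 was lost with 75th percentile scaling, with the control arrays alone and without TT replicate 1, TT replicate 2 or ORI replicate 2. The paralogous enzymes UBE2J1 and UBE2J2 were thus apart in opposite directions. DERL1, at -0.42 ± 0.54, HERPUD1 and the other Derlins did not pass.

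At the channel, SSR4 had the largest called difference, at 13.80 and 13.61 in Nthy-ori 3-1 and at 16.17 and 16.05 in TT cells, 5.30-fold higher (adjusted p = 8.94e-05, limma). SSR2 was higher by 1.25 ± 0.31 and SSR1 by 0.66 ± 0.19, whereas SSR3, at -0.21 ± 0.31, did not pass. Whether the subunits differ from one another was not tested. The call of SSR1 was lost with the control arrays alone and without any 1 of the 4 replicates, and that of SSR2 without ORI replicate 1 or TT replicate 2. The Sec61 subunits SEC61B and SEC61G were both at -0.19 and SEC61A1 at 0.63 ± 0.30 (adjusted p = 0.136, limma), and none of the 3 passed. Where a gene had several probes, they gave the same sign for EDEM3, ERLEC1, PDIA3, UBE2J2, UFD1L, SSR1, HSP90B1, P4HB and SEC63, but not for CANX, at 0.44 and -0.51, DERL3 or SEL1L, none of whose probes was called. The second probes of DNAJC3 and ERO1LB were too dim to be tested.

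**Figure D5:**
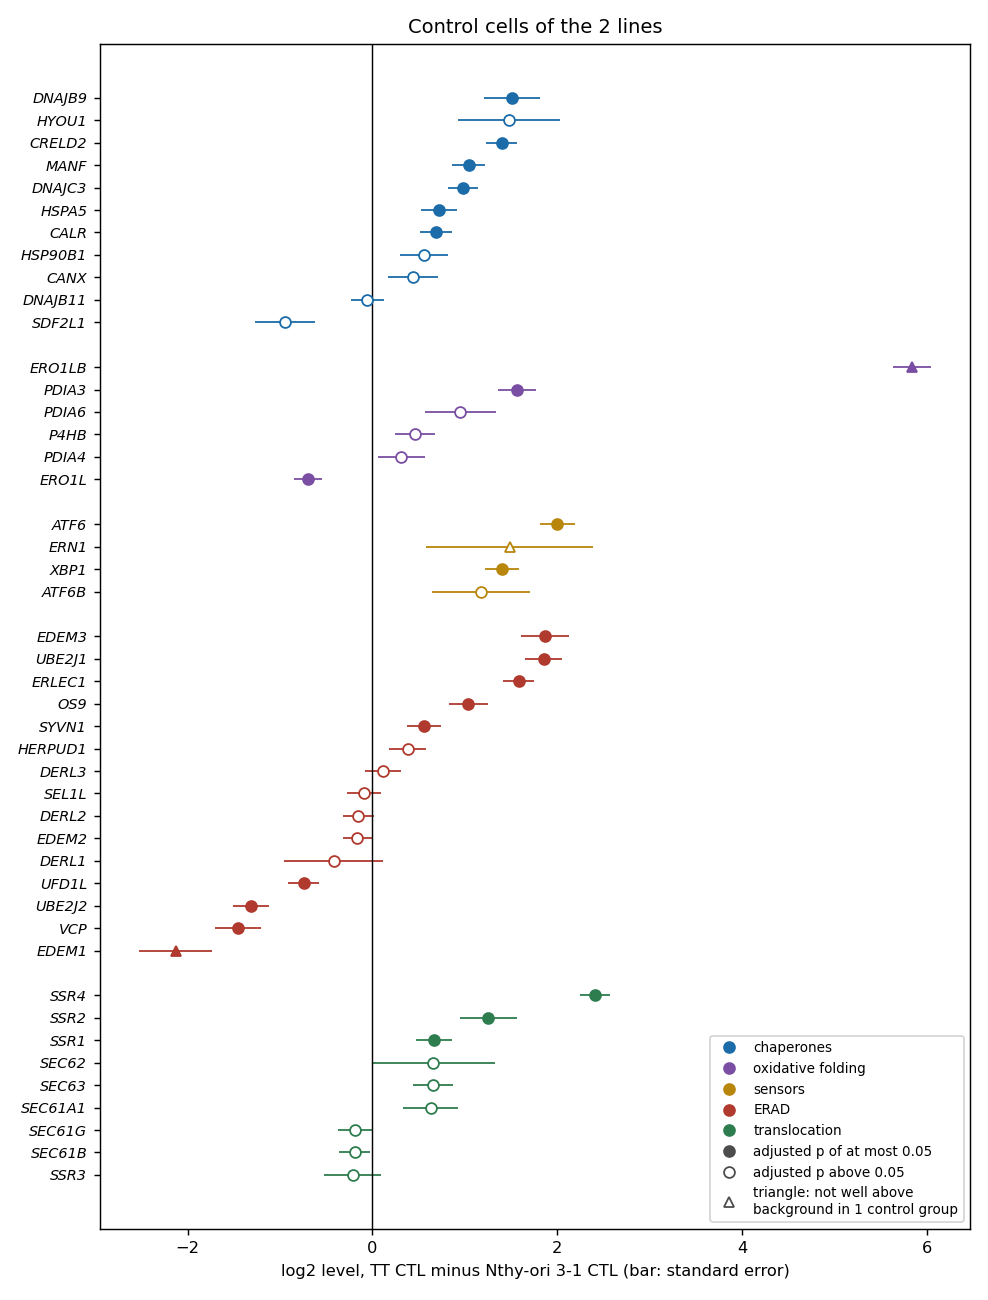
Log2 level in TT control cells minus that in Nthy-ori 3-1 control cells for the 45 genes by role, with standard errors (n = 2 arrays per line); filled symbols passed an adjusted p of 0.05 and triangles were not well above background in 1 of the control groups. Chaperones lie mostly to the right, up to 1.51 in DNAJB9, and ERAD runs from 1.87 in EDEM3 to -2.13 in EDEM1.

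A list of 52 further genes of the pathway was read in the same fits. In each line alone 0 were called. The difference between the lines was called for 4, all lower, beside the 5.9% of all probes called and the 3.47% called lower: CREB3, an ER-bound transcription factor (-1.75 ± 0.23), DDIT3, the stress factor CHOP (-1.37 ± 0.16), PPP1R15A, a phosphatase subunit that restores translation (-1.34 ± 0.14), and TXNDC5, a disulfide isomerase (-1.05 ± 0.15). DDIT3 was at 9.70 and 10.16 in Nthy-ori 3-1 control cells and at 8.74 and 9.36 with pre-miR-375, and at 8.73 and 8.58 in TT control cells and 9.11 and 9.19 with antagomiR-375. Of the 52, 23 were higher and 19 lower in both pairs with pre-miR-375, and 29 and 8 with antagomiR-375. The PERK arm is the only group of this list given apart. Of its 7 genes, 5 were lower in both pairs with pre-miR-375, beside 33.8% of all probes. Among these 5, ASNS, at -0.07 and -0.03, and TRIB3, at -0.04 and -0.10, were near 0. EIF2AK3, which encodes PERK, was higher, by 0.45 and 0.38, and CHAC1 was also higher in both pairs. With antagomiR-375, 6 of the 7 were higher in both pairs, beside 30%. The median of the 7 was -0.07 with pre-miR-375 and 0.30 with antagomiR-375, and 0 were called in either line. Between the control groups, 13 of the 52 were higher and 14 lower in TT cells, near the 23.7% and 24.2% of all probes.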

How the data were processed

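RNA of 8 samples was measured on Agilent SurePrint G3 arrays. The authors deposited, per spot, the intensity read by Feature Extraction 10.10.1.1 (background-subtracted processed signal, mean, median and background), on the hg19 design, not normalized between arrays. The authors also deposited a table of log2 values, normalized within each line judging by its values, used as an alternative. From the processed intensity, control and outlier spots (341 to 428 per array) were left out, log2 taken, spots of a probe averaged and the 8 arrays brought to common quantiles (limma 3.58.1, R 4.3.3). Probes well above background on at least 2 arrays of a line (of the control arrays between lines) were tested, in limma: each line alone with the slide as a block (1 residual degree of freedom), the difference between lines in a joint fit, and control groups over all arrays with a slide correlation of 0.658. P were adjusted by Benjamini-Hochberg over all probes. Arrays of equal number shared a slide in the file headers, and their deviations correlated at 0.617 in Nthy-ori 3-1 and 0.303 in TT. The number of arrays limits precision: an exact two-sided permutation test of 2 against 2 cannot go below 0.333.

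Members and lists were chosen with earlier results of these data known. Genes were named where they had the 5 largest steps in a direction shared by both pairs of a line (4 lower in Nthy-ori 3-1), were called in the difference, or had the largest called line differences, with DERL1 throughout. Other members were added to describe each role after their values were seen. For a probe below background in a group, the fold took, per array, the higher of the lowest signal well above background and its own reading. That lowest signal comes from any probe, so such a fold is no strict bound. Simulated data had 100 probes changed by 1 and 100 by 2 on the log2 scale in Nthy-ori 3-1. Their difference between lines was estimated at 1.51 and 3.01. Of these probes 0 were called in each line alone and 23 and 66 of 100 in the difference, with 4 unchanged probes called. With both lines fitted together, 0 and 40 of 100 were called with pre-miR-375. In a simulation of the control groups, 100 probes shifted by 1 and 100 by 2 gave 0 calls. The data gave 47.9% of probes called there, so that simulation does not resemble them.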

Additional observations from a re-analysis of the deposited data

Results flagged for a closer look

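The response of 4 members differed between the lines in the joint limma fit, taken as the log2 fold change with pre-miR-375 in Nthy-ori 3-1 minus that with antagomiR-375 in TT cells. It was -2.13 for DERL1, -1.25 for HERPUD1, -1.22 for SEC61G and -1.04 for SSR1. Treatments, lines, slides and scan sessions differ together in this comparison and cannot be told apart.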

How the results depend on the processing

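Members called with pre-miR-375, 0 in the fit of the line, numbered 10 with normexp, 8 with the median signal, 9 with the deposited values and 6 with both lines fitted together, and probes called numbered 4216, 3058, 3321 and 2319. With antagomiR-375, 109 probes were called with normexp. The difference between the lines had 7 members called with normexp, with the median signal and with the deposited values, and 3794, 3291 and 3324 probes, against 4 and 1497. Without a filter on dim probes it had 0 members and 0 probes, and with no replicate block 0 members and 67 probes. Leaving out each pair in turn left 0 members and 0 probes in the difference. SSR1 lost its call in the difference with 75th percentile scaling and with the mean of the gene's probes (-0.47). The cause of these shifts was not tested, except that leaving out a pair removes a residual degree of freedom. SDF2L1 was called lower between control groups in limma with normexp (adjusted p = 0.0251), with the median signal (0.0261) and with no replicate block (0.0282). HYOU1, HSP90B1, SEC63, P4HB and PDIA6 were called higher between control groups under some other settings. With 75th percentile scaling the members' median was 0.15 with pre-miR-375 and 0.061 with antagomiR-375, and leaving out each replicate in turn it ranged from 0.17 to 0.24 with pre-miR-375 and from 0.11 to 0.19 in the difference. SSR1 in TT cells, near 0, changed sign under 4 alternatives, to -0.0024 with normexp, -0.065 with 75th percentile scaling, from -0.063 to 0.096 leaving out each TT replicate in turn and -0.0074 with the mean of the gene's probes. Directions of named genes were kept in 108 of 108 alternatives with pre-miR-375, 152 of 156 with antagomiR-375, 144 of 144 between control groups and 52 of 52 in the difference. Between control groups UFD1L lost its call without TT replicate 2 (adjusted p = 0.0505), HSPA5 and SYVN1 with 75th percentile scaling, HSPA5, SYVN1 and SSR1 with the control arrays alone, and CALR, HSPA5, SSR1, SSR2 and SYVN1 each without at least 1 of the replicates. Quantile normalization within each line and the deposited values give no value between lines.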
